A study of Homo sapiens with 6 samples.

Results

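The 50 genes described here encode mitotic regulators and kinetochore proteins. Their names were listed, with earlier results of these data known, to cover CDK1 and its cyclins and activators, spindle checkpoint and APC/C proteins, centromere and kinetochore subunits, condensin subunits and spindle proteins, and they are 50 of the 58174 genes in the expression table and of the 16321 genes that entered the test. The measurements are mRNA sequencing of SiHa cells, an established human line of cervical squamous cell carcinoma. In the OV-BRCA1 group (3 samples) a lipid reagent brought in GV230-BRCA1, in the NC group (3 samples) GV230 without insert, and RNA was taken 48 h later. Both groups therefore share the transfection and the vector, and the share of cells that took up plasmid is not given in the sources used here. The deposited values are FPKM, the fragments of a transcript scaled to its length and to the mapped fragments of the sample, and they were summed here over the transcripts of each gene.

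Entry into mitosis is driven by CDK1 bound to cyclin A or cyclin B, which is switched on by CDC25 phosphatases and by Polo-like and Aurora kinases. Kinetochores then tie chromosomes to spindle microtubules, the spindle checkpoint holds the anaphase-promoting complex (APC/C) inactive until every chromosome is attached, and the APC/C with CDC20 afterwards marks securin and cyclin B for destruction. Many of these genes are expressed mainly in the G2 and M phases of the cell cycle, and their promoters are known to carry a cell cycle genes homology region (CHR), often near a CCAAT box.

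The promoter sequences are shown first because these elements are what the list is known to share. RefSeq start-site windows of 300 bases (250 before the start and 50 after it, GRCh38.p14) were matched by symbol for 41 of the 50 genes, with 54 windows in all. The windows were searched on both strands for TTTGAA and TTCGAA, which are forms of the CHR, and for CCAAT. The 8 stretches below cover the 120 bases before the start, and for CDCA3 also 3 bases after it. They include the gene with the lowest fold change, genes with both elements, CCNB1 without a CHR match in its window, BUB1B without a CCAAT match in this stretch and CDCA5 with the TTCGAA form. Capitals mark the CHR and CCAAT matches, the latter printed as ATTGG where they lie on the other strand.
CDCA3, chr12:6851284-6851406, minus strand: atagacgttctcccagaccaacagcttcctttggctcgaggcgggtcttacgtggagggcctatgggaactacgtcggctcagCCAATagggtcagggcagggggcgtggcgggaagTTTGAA
CCNB2, chr15:59105026-59105145, plus strand: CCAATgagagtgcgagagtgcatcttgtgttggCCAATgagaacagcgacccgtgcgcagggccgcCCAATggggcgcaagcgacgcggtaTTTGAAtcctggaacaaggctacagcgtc
CCNB1, chr5:69167030-69167149, plus strand: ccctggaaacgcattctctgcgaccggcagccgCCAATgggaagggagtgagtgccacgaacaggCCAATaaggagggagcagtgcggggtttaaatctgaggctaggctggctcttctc
CDC20, chr1:43358861-43358980, plus strand: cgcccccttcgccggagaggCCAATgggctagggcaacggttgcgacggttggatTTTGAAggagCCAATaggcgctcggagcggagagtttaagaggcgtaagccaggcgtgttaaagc
PRC1, chr15:90994536-90994655, minus strand: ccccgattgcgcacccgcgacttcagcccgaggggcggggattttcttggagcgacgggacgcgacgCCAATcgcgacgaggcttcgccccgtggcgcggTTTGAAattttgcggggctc
INCENP, chr11:62123891-62124010, plus strand: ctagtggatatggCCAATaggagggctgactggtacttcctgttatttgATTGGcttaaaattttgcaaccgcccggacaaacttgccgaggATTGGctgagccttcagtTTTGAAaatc
BUB1B, chr15:40160949-40161068, plus strand: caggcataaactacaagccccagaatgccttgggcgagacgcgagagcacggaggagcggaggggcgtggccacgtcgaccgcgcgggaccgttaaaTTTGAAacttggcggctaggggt
CDCA5, chr11:65084041-65084160, minus strand: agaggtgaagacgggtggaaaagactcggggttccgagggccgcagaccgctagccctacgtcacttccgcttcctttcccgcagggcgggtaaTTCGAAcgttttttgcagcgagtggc

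TTTGAA was found in 32 of the 54 windows (59.3%), against 15.2% of all 35116 RefSeq windows of this length. TTCGAA was found in 4 windows (7.41%), against 1.45% of all. A CCAAT match was present in 37 windows (68.5%), against 34.6% of all. Both a CHR of either form and a CCAAT match were present in 26 windows (48.1%), against 6.38% of all. The 39 windows of a list of G1/S genes, which encode replication and S phase proteins, held TTTGAA in 1 window (2.56%) and CCAAT in 25 windows (64.1%). The share of windows with TTTGAA was higher among the mitotic genes than in the G1/S list, while the shares with CCAAT were close, and neither difference was tested. Of the 44 TTTGAA matches, 22 began within the 50 bases before the start, and of the 80 CCAAT matches, 53 began 120 to 30 bases before it. TPX2, AURKA, CENPM, CDCA2, BUB3, TTK, UBE2C, BIRC5 and FOXM1 were not matched to a window. These matches are letters found in a window and not measured binding sites.

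**Figure D1:**
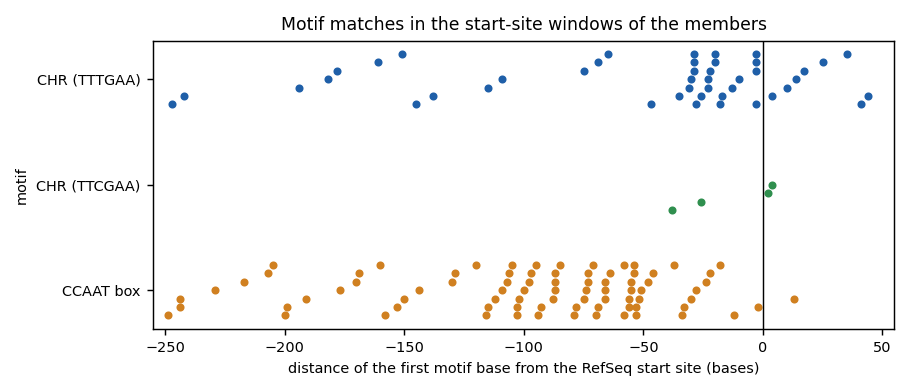
Position of the motif matches in the 54 RefSeq start-site windows of the mitotic genes. The horizontal axis gives the distance of the first motif base from the start site in bases, each point is 1 match on either strand, and each row is 1 motif (points are spread vertically only for legibility). Of the 44 TTTGAA matches 22 lie in the 50 bases before the start, and most CCAAT matches lie upstream of them.

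The targeted gene was measured first. In the order of their sample numbers, 1 to 3, which is kept below, the OV-BRCA1 samples held 35.7, 40.8 and 34.9 FPKM of BRCA1 and the NC samples 20.1, 14.9 and 21.7 FPKM. Every OV-BRCA1 sample was above every NC sample (log2 fold change 0.95 ± 0.14 (SE), adjusted p = 0.00373). GAPDH had 3006, 2834 and 2849 FPKM in OV-BRCA1 and 2914, 2777 and 2805 FPKM in NC and did not pass the test (log2 fold change 0.03 ± 0.04 (SE), adjusted p = 0.586). Of the epithelial markers, KRT8 and KRT18 were abundant in every sample (lowest values 316 and 188 FPKM), EPCAM ranged from 2.11 to 7.65 FPKM, and KRT5, KRT19 and CDH1 were below 1 FPKM. KRT8, KRT18 and EPCAM were higher in OV-BRCA1 (log2 fold changes 0.20, 0.39 and 1.12), and their part in the results was not tested. The study's own list has KRT8 among its downregulated genes. PTPRC was listed at 0, DCN and CD3E did not exceed 0.233 FPKM and PECAM1 did not exceed 1.45 FPKM. The files hold no counts, and the total reads per sample that the study reports were not used here. The depth, estimated from the value that 1 fragment adds in genes with a single transcript, was 14.3 to 16.7 M fragments in OV-BRCA1 and 16.1 to 19.98 M in NC, and the mitotic gene with the fewest estimated fragments in any sample (CENPA) had 164. Mitochondrial transcripts made up 14.8% to 17.2% of the summed FPKM in OV-BRCA1 and 21.0% to 23.2% in NC.

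Of the 50 mitotic genes, 32 fell in OV-BRCA1 and none rose at a Benjamini-Hochberg adjusted p below 0.05 in limma's moderated test on log2(FPKM + 1). Over all 16321 genes, 18.9% fell and 16.4% rose, so the share of 64.0% among the mitotic genes was above the background. This list was drawn up with results of the same samples in view, and its share is a description. Their log2 fold changes ran from -1.20 to 0.23 with a median of -0.46, against a median of -0.04 over all genes. The sign was negative in 44 genes and positive in 6, and of those 6 none had an unadjusted p below 0.05 in limma (lowest 0.130, MAD2L1). In 36 genes every OV-BRCA1 sample was below every NC sample, against 27.4% of all genes, and in none was every OV-BRCA1 sample above every NC sample, against 23.4% of all genes. The criterion that also asks for a log2 fold change beyond 1 was met by 1 gene, CDCA3, and by 1.10% of all genes in this direction. In these values the falls were thus mostly of moderate size. Among the called genes, levels in OV-BRCA1 ran from 42.2% of the NC mean in CDCA3 to 83.4% in NCAPG. The study, with DESeq and the same cut-offs, lists CDCA3 and also CCNB1, CCNB2, CDC20, CDC25B, CENPA, PRC1, TOP2A, UBE2C and NUSAP1 as downregulated. Apart from CDCA3, none of these met the criterion in the main test here, and the reason was not tested. With another scaling that leaves the mitochondrial transcripts out, the median was -0.50 with 32 genes lower, and with scaling by the median of ratios it was -0.42 with 31 lower. In these bulk samples, fewer cells in G2 and M phase and less mRNA of these genes per cell cannot be told apart.

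**Figure D2:**
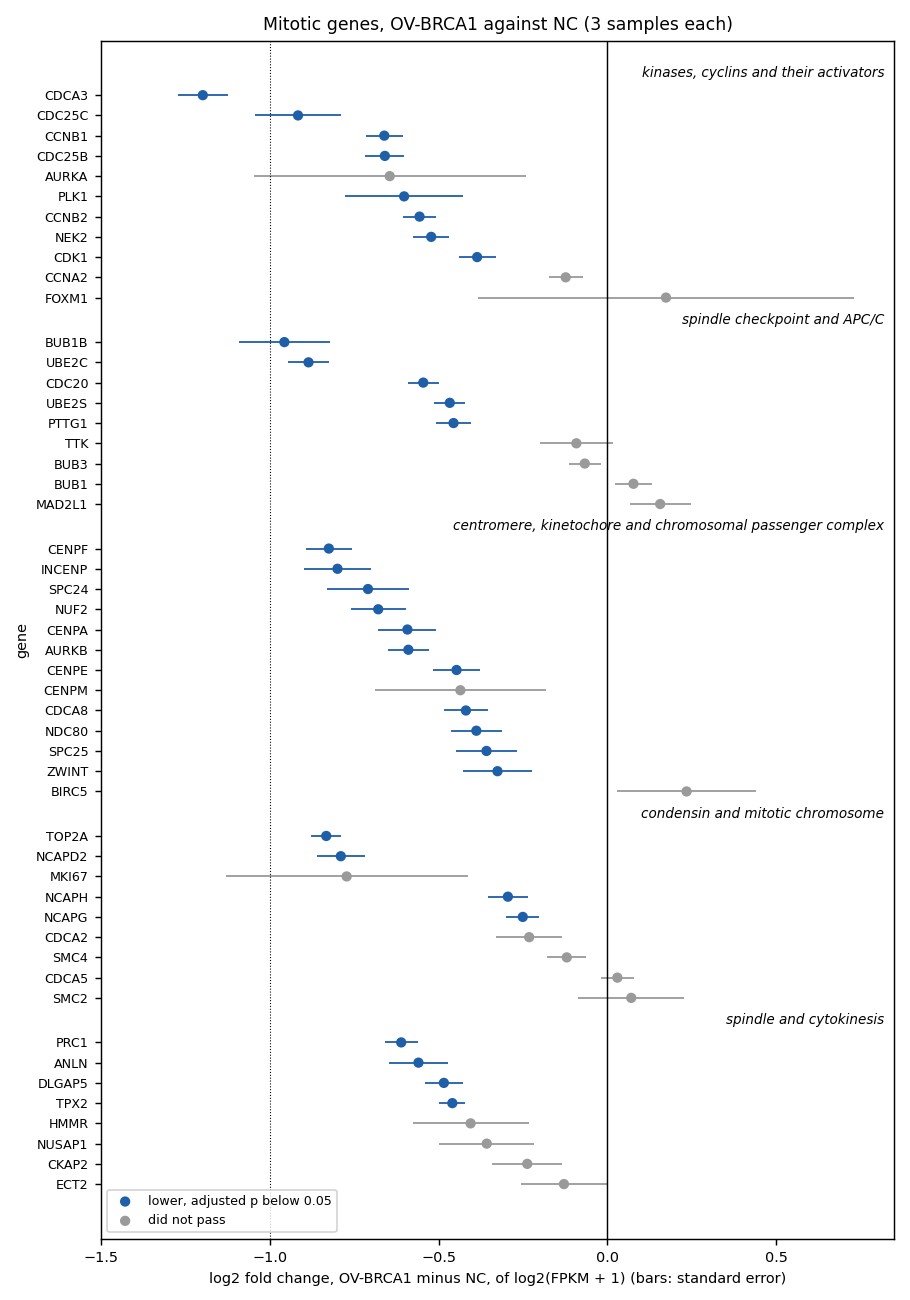
Log2 fold change of OV-BRCA1 against NC for the 50 mitotic genes, grouped by role, on the log2(FPKM + 1) scale. Points are the fitted difference of 3 against 3 samples and bars the standard error. Blue points passed an adjusted p of 0.05 (32 genes, all below 0), grey points did not (18 genes), and the dotted line marks a log2 fold change of -1, which CDCA3 alone passes.

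**Figure D3:**
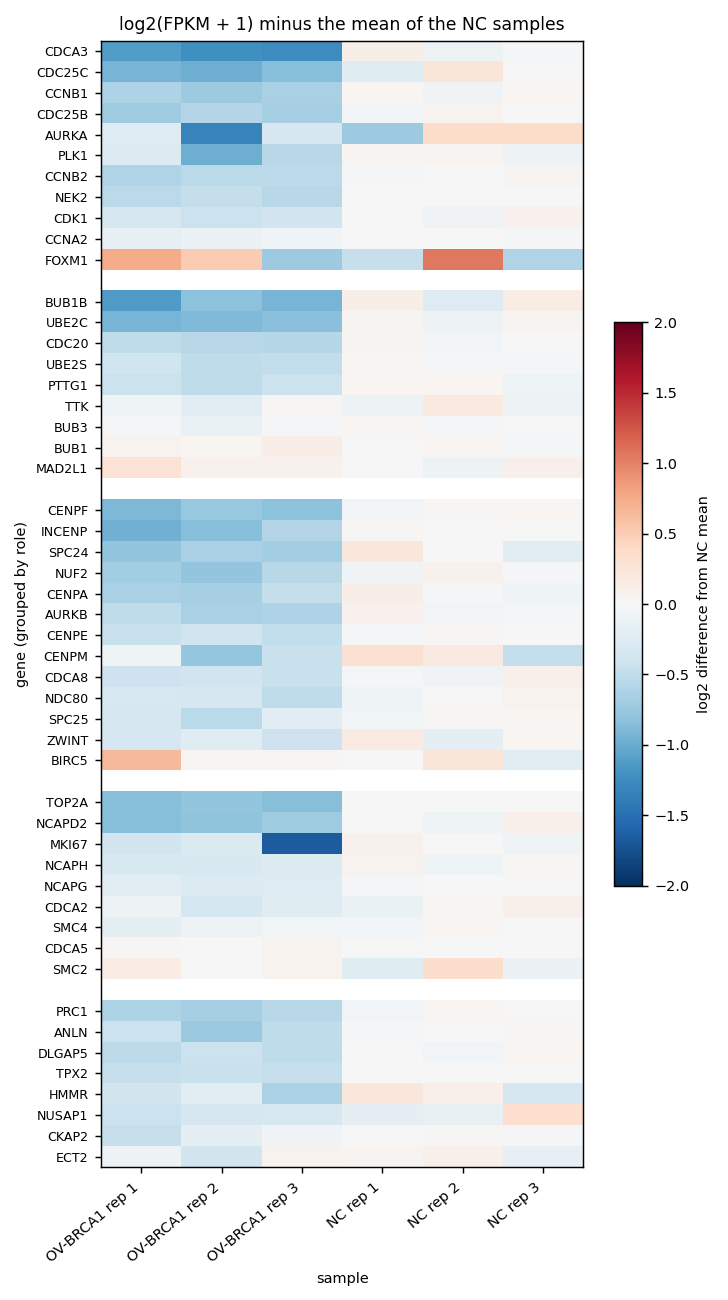
Difference of each sample from the NC mean on the log2(FPKM + 1) scale, 1 row per gene and 1 column per sample, with blue below and red above the NC mean. In 36 rows all 3 OV-BRCA1 columns lie below all 3 NC columns, while in AURKA, FOXM1, CENPM and BIRC5 the samples of the groups overlap.

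Among the 11 kinases, cyclins and their activators, 8 fell and 3 did not pass (median log2 fold change -0.60). With only the most abundant transcript of each gene, 4 were lower. The lowest fold change belonged to CDCA3 (chr12:6844793-6852066, minus strand of GRCh38), a trigger of mitotic entry that helps to degrade the CDK1 inhibitor WEE1. CDCA3 had 18.5, 17.1 and 16.7 FPKM in the OV-BRCA1 samples and 44.7, 38.6 and 40.8 FPKM in the NC samples, so it was 57.8% lower (log2 fold change -1.20 ± 0.07 (SE), adjusted p = 0.000117). The groups were far apart, with the highest OV-BRCA1 sample below the lowest NC sample by more than the whole spread within either group. It was the only member called beyond a log2 fold change of 1 in the main test. BUB1B joined it without OV-BRCA1 sample 2 (-1.03) or without NC sample 2 (-1.08), and CDC25C joined it without NC sample 1 (-1.04).

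The mitotic cyclins moved together at the B type. CCNB1, the main cyclin of CDK1 in mitosis, had 66.7, 62.1 and 65.3 FPKM in OV-BRCA1 and 106, 97.4 and 105 FPKM in NC (log2 fold change -0.66 ± 0.05 (SE), adjusted p = 0.000375). CCNB2, the Golgi-associated B-type cyclin, had 40.1, 41.9 and 42.6 FPKM in OV-BRCA1 and 59.9, 61.2 and 63.7 FPKM in NC (log2 fold change -0.56 ± 0.05 (SE), adjusted p = 0.000508). The groups did not overlap in either gene, and CCNB1 was the most abundant gene of the kinase and cyclin group. CCNA2, cyclin A, which acts from S phase on, had 24.9, 25.7 and 26.5 FPKM in OV-BRCA1 and 28.4, 28.4 and 27.5 FPKM in NC. Its samples did not overlap either, but the difference was small and did not pass (log2 fold change -0.12 ± 0.05 (SE), adjusted p = 0.106). CCNA2 passed only when transcripts were weighted by their length (-0.13, adjusted p = 0.0443), an alternative added after the values had been seen. The ratio of CCNB1 to CCNA2 was 2.68, 2.41 and 2.46 in the OV-BRCA1 samples and 3.73, 3.43 and 3.83 in the NC samples. This ratio was chosen after the values were seen and is a description.

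Of the CDC25 phosphatases that activate CDK1, the 2 among the 50 genes were lower, and CDC25A, from the list of CDK1 regulators outside the 50, was higher. CDC25B, which starts CDK1 activation at the centrosome, had 50.99, 55.9 and 52.8 FPKM in OV-BRCA1 and 81.1, 88.6 and 84.1 FPKM in NC (log2 fold change -0.66 ± 0.06 (SE), adjusted p = 0.000454). CDC25C, which amplifies it, had 8.06, 7.78 and 8.60 FPKM in OV-BRCA1 and 13.6, 19.5 and 16.3 FPKM in NC (log2 fold change -0.92 ± 0.13 (SE), adjusted p = 0.00284). All OV-BRCA1 samples of both genes were below all NC samples. CDC25A, which acts at the G1/S and G2/M transitions, had 11.9, 7.89 and 12.8 FPKM in OV-BRCA1 and 5.38, 6.09 and 6.22 FPKM in NC (log2 fold change 0.76 ± 0.17 (SE), adjusted p = 0.0175), and is named here after its values had been seen. CDK1 itself had 67.3, 63.3 and 65.1 FPKM in OV-BRCA1 and 84.8, 81.8 and 90.4 FPKM in NC (log2 fold change -0.39 ± 0.05 (SE), adjusted p = 0.00297), again without overlap. NEK2, a centrosome-splitting kinase, had 15.8, 16.7 and 15.6 FPKM in OV-BRCA1 and 23.5, 23.2 and 23.7 FPKM in NC (log2 fold change -0.52 ± 0.05 (SE), adjusted p = 0.000848). CDC25C overlaps FAM53C on the other strand, and FAM53C was higher (log2 fold change 0.22).

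PLK1, the Polo-like kinase, had 29.2, 17.4 and 23.7 FPKM in OV-BRCA1 and 36.6, 36.6 and 32.9 FPKM in NC. It was called lower (log2 fold change -0.60 ± 0.18 (SE), adjusted p = 0.0393), but OV-BRCA1 sample 1 was close to NC sample 3. The call was lost without OV-BRCA1 sample 3 (adjusted p = 0.0851) and without NC sample 1, 2 or 3 (0.102, 0.101 and 0.0720). It was also lost without the filter on low values (0.0964). In the protein-coding transcripts of PLK1 alone the groups overlapped and limma made no call (log2 fold change -0.86, adjusted p = 0.331). Its other transcripts held 44.4% of its FPKM in OV-BRCA1 and 36.4% in NC. AURKA, the spindle-pole Aurora kinase, had 44.9, 20.7 and 42.4 FPKM in OV-BRCA1 and 32.1, 69.5 and 69.7 FPKM in NC, with OV-BRCA1 sample 2 and NC sample 1 far from the others of their groups (log2 fold change -0.65 ± 0.40 (SE), adjusted p = 0.260). Its log2 fold change was -0.30 without OV-BRCA1 sample 2 and -1.01 without NC sample 1, without a call. FOXM1, a transcription factor of G2 and M phase genes, had 41.3, 35.1 and 14.4 FPKM in OV-BRCA1 and 17.5, 51.7 and 15.7 FPKM in NC (adjusted p = 0.832). High and low samples of FOXM1 occurred in both groups, and its standard error of 0.56 was wider than the fold change of 0.17, so a difference of the size seen in most members was not detectable for it.

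In the spindle checkpoint and APC/C group, 5 of 9 genes fell and 4 did not pass (median -0.46). UBE2C (chr20:45812576-45816957, plus strand), the E2 enzyme that starts ubiquitin chains on APC/C substrates, had 122, 127 and 131 FPKM in OV-BRCA1 and 243, 217 and 244 FPKM in NC. All OV-BRCA1 samples were below all NC samples, at 46.1% less on average (log2 fold change -0.89 ± 0.06 (SE), adjusted p = 0.000173). UBE2S, the E2 enzyme that extends those chains, was the most abundant of all 50 genes, with 209, 195 and 196 FPKM in OV-BRCA1 and 286, 274 and 272 FPKM in NC (log2 fold change -0.47 ± 0.05 (SE), adjusted p = 0.000745). CDC20, the coactivator that brings substrates to the APC/C, had 93.2, 89.8 and 89.5 FPKM in OV-BRCA1 and 138, 129 and 133 FPKM in NC (log2 fold change -0.55 ± 0.05 (SE), adjusted p = 0.000392). PTTG1, the securin that holds separase inactive, had 113, 106 and 113 FPKM in OV-BRCA1 and 156, 156 and 144 FPKM in NC (log2 fold change -0.46 ± 0.05 (SE), adjusted p = 0.00138). In each of these genes the samples of the groups stood apart. The pseudogene UBE2SP1 reached 26.2 FPKM and UBE2SP2 3.90 FPKM, so part of the UBE2S reads could be shared with them, and UBE2S overlaps RPL28 on the other strand.

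The checkpoint kinases and scaffolds divided. BUB1B, which encodes BUBR1 of the mitotic checkpoint complex, had 10.3, 13.03 and 11.96 FPKM in OV-BRCA1 and 25.6, 19.7 and 26.2 FPKM in NC (log2 fold change -0.96 ± 0.13 (SE), adjusted p = 0.00282). It was 50.7% lower, with no overlap of the samples. BUB1, the related kinase, had 24.03, 23.5 and 25.2 FPKM in OV-BRCA1 and 22.8, 23.5 and 22.4 FPKM in NC (log2 fold change 0.08 ± 0.05 (SE), adjusted p = 0.315). The ratio of BUB1B to BUB1 was 0.428, 0.555 and 0.475 in the OV-BRCA1 samples and 1.12, 0.838 and 1.17 in the NC samples, again a description chosen after the values were seen. BUB3, the partner that brings both to kinetochores, averaged 108 FPKM in OV-BRCA1 and 113 FPKM in NC (log2 fold change -0.07), and TTK, the MPS1 kinase, 10.3 and 11.02 FPKM (log2 fold change -0.09). MAD2L1, the MAD2 checkpoint protein, had 12.2, 10.4 and 10.5 FPKM in OV-BRCA1 and 9.74, 9.06 and 10.6 FPKM in NC and did not pass (log2 fold change 0.16 ± 0.09 (SE), adjusted p = 0.225). With transcripts weighted by length it was the only one of the 50 genes called higher (0.22, adjusted p = 0.0256).

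In the centromere, kinetochore and chromosomal passenger group 11 of 13 genes were lower (84.6%, median -0.45). The count was 9 of 13 (69.2%) without OV-BRCA1 sample 1, NC sample 1 or NC sample 3. With only the most abundant transcript of each gene it was 5 of 13. CENPF (chr1:214603195-214664588, plus strand), a protein of the outer kinetochore, had 7.20, 8.04 and 7.62 FPKM in OV-BRCA1 and 13.7, 14.5 and 14.6 FPKM in NC (log2 fold change -0.83 ± 0.07 (SE), adjusted p = 0.000359). CENPA, the histone H3 variant that marks the centromere, had 11.9, 11.7 and 13.5 FPKM in OV-BRCA1 and 20.95, 18.5 and 18.00 FPKM in NC (log2 fold change -0.59 ± 0.09 (SE), adjusted p = 0.00325). The samples of these genes did not overlap. CENPA overlaps SLC35F6 on the same strand, which was higher (log2 fold change 0.32), so shared reads of the 2 genes could be split between them. CENPE, a kinetochore motor, was lower at 3.59 against 5.25 FPKM (log2 fold change -0.45 ± 0.07 (SE), adjusted p = 0.00453) and was the least abundant member.

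All 4 subunits of the NDC80 complex, which binds microtubules at the kinetochore, were called lower. NUF2 had 12.02, 11.3 and 13.4 FPKM in OV-BRCA1 and 19.1, 21.5 and 19.9 FPKM in NC (log2 fold change -0.68 ± 0.08 (SE), adjusted p = 0.00158). Its partners had log2 fold changes of -0.39 (NDC80, adjusted p = 0.0102), -0.71 (SPC24, adjusted p = 0.00586) and -0.36 (SPC25, adjusted p = 0.0259). The differences between the subunits were not tested. The SPC25 call was lost without OV-BRCA1 sample 1 (adjusted p = 0.0584) and without NC sample 1, 2 or 3 (0.0510, 0.0730 and 0.0759). ZWINT, a kinetochore protein bound to KNL1, was at the threshold (log2 fold change -0.33 ± 0.10 (SE), adjusted p = 0.0475), and its call was lost without OV-BRCA1 sample 1, 2 or 3 (0.106, 0.0676 and 0.127) and without NC sample 1 or 3 (0.116 and 0.120). The log2 fold change of ZWINT was -0.05 in its protein-coding transcripts alone (limma adjusted p = 0.674), and the other transcripts held 59.9% of its FPKM in OV-BRCA1 and 67.2% in NC.

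Of the chromosomal passenger complex, which corrects wrong attachments, 3 of 4 subunits were called lower. INCENP, the scaffold, had 13.1, 14.2 and 17.2 FPKM in OV-BRCA1 and 26.8, 26.2 and 26.3 FPKM in NC (log2 fold change -0.80 ± 0.10 (SE), adjusted p = 0.00180). CDCA8, the borealin subunit, fell from a mean of 32.3 to 23.9 FPKM (log2 fold change -0.42 ± 0.06 (SE), adjusted p = 0.00400). AURKB, the kinase, had 62.6, 56.6 and 57.7 FPKM in OV-BRCA1 and 94.4, 86.2 and 87.1 FPKM in NC and was the most abundant of the group (log2 fold change -0.59 ± 0.06 (SE), adjusted p = 0.000910). In its protein-coding transcripts alone, AURKB did not pass the test. Transcripts that are not protein-coding summed to 20.1, 35.02 and 34.8 FPKM in OV-BRCA1 and 67.6, 59.6 and 58.5 FPKM in NC. The protein-coding transcripts alone summed to 42.4, 21.6 and 22.9 FPKM in OV-BRCA1 and 26.8, 26.7 and 28.6 FPKM in NC, with a log2 fold change of 0.01 (adjusted p = 0.971). OV-BRCA1 sample 1, where AURKB-204 led, was above every NC sample in this coding sum, and OV-BRCA1 samples 2 and 3 were below every NC sample. BIRC5, survivin, had 18.8, 11.8 and 11.8 FPKM in OV-BRCA1 and 11.5, 13.9 and 9.69 FPKM in NC, with OV-BRCA1 sample 1 above the rest (log2 fold change 0.23 ± 0.21 (SE), adjusted p = 0.420). Without OV-BRCA1 sample 1 its log2 fold change was 0.02, without NC sample 3 it was 0.12 and without NC sample 2 it was 0.36. CENPM averaged 25.3 and 34.8 FPKM and did not pass (log2 fold change -0.44, adjusted p = 0.228), with -0.26 without OV-BRCA1 sample 2 and -0.67 without NC sample 3.

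The condensin and mitotic chromosome group had 4 of 9 genes lower (median -0.25). TOP2A (chr17:40388516-40417950, minus strand), the topoisomerase that untangles sister chromatids, had 38.5, 40.3 and 38.3 FPKM in OV-BRCA1 and 70.4, 69.9 and 70.5 FPKM in NC. The samples of each group were close together and the groups stood far apart (log2 fold change -0.83 ± 0.04 (SE), adjusted p = 6.76e-05), with the smallest adjusted p of the 50 genes. NCAPD2, a regulatory subunit of condensin I, had 24.8, 25.6 and 27.6 FPKM in OV-BRCA1 and 45.1, 42.9 and 49.1 FPKM in NC (log2 fold change -0.79 ± 0.07 (SE), adjusted p = 0.000513). NCAPD2 overlaps MRPL51 on the other strand, and MRPL51, at a mean of 82.8 FPKM, was lower too (log2 fold change -0.69). NCAPG, at 21.5, 20.8 and 20.9 FPKM in OV-BRCA1 and 24.9, 25.5 and 25.5 FPKM in NC, and NCAPH, at 20.8, 20.8 and 21.2 FPKM in OV-BRCA1 and 27.2, 24.4 and 26.2 FPKM in NC, completed the regulatory subunits of condensin I. Both fell by less (log2 fold changes -0.25 and -0.29, adjusted p = 0.00996 and 0.0105), without overlap of the samples.

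The ATPase subunits of condensin did not pass. SMC4 had 43.6, 46.6 and 48.4 FPKM in OV-BRCA1 and 48.3, 51.9 and 50.7 FPKM in NC (log2 fold change -0.12 ± 0.06 (SE), adjusted p = 0.158), and SMC2 averaged 9.33 and 8.98 FPKM (log2 fold change 0.07). The ratio of NCAPD2 to SMC4 was 0.568, 0.549 and 0.570 in the OV-BRCA1 samples and 0.935, 0.826 and 0.967 in the NC samples, a description chosen after the values were seen. CDCA5, the sororin that protects cohesin, averaged 29.7 and 29.1 FPKM (log2 fold change 0.03 ± 0.05, SE). CDCA2, which brings a phosphatase to chromatin, was at 8.60 and 10.3 FPKM (adjusted p = 0.114). With transcripts weighted by length, limma called CDCA2 lower (log2 fold change -0.22, adjusted p = 0.0178). MKI67, the Ki-67 proliferation antigen, had 17.8, 18.6 and 6.63 FPKM in OV-BRCA1 and 24.6, 23.1 and 21.8 FPKM in NC. Every OV-BRCA1 sample was lower, but sample 3 stood far below the other two and the test was not passed (log2 fold change -0.77 ± 0.36 (SE), adjusted p = 0.143). Without OV-BRCA1 sample 3 the log2 fold change was -0.33 and the call was lower (adjusted p = 0.0296).

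Among the 8 spindle and cytokinesis genes, 4 fell and all 8 had a negative sign (median -0.43). PRC1 (chr15:90966038-90995629, minus strand), which bundles microtubules at the spindle midzone, had 66.6, 64.7 and 69.5 FPKM in OV-BRCA1 and 99.1, 105 and 104 FPKM in NC (log2 fold change -0.61 ± 0.05 (SE), adjusted p = 0.000338). TPX2, a spindle assembly factor that activates AURKA, had 67.9, 68.2 and 67.6 FPKM in OV-BRCA1 and 92.8, 93.8 and 94.6 FPKM in NC (log2 fold change -0.46 ± 0.04 (SE), adjusted p = 0.000411). DLGAP5, which stabilises kinetochore microtubules, had 15.01, 16.01 and 15.1 FPKM in OV-BRCA1 and 22.1, 21.1 and 22.5 FPKM in NC (log2 fold change -0.48 ± 0.06 (SE), adjusted p = 0.00147). The groups did not overlap in these 3 genes, and in TPX2 the samples of a group differed by less than 2 FPKM. ANLN, the anillin scaffold of the contractile ring, had 48.1, 38.4 and 45.2 FPKM in OV-BRCA1 and 63.5, 65.3 and 66.04 FPKM in NC (log2 fold change -0.56 ± 0.09 (SE), adjusted p = 0.00407). The fall of ANLN was not called in its protein-coding transcripts alone (log2 fold change -0.40, adjusted p = 0.142). NUSAP1, a microtubule-binding protein and the most abundant of this group, had 98.1, 105 and 106 FPKM in OV-BRCA1 and 116, 119.6 and 167 FPKM in NC, with NC sample 3 far above the rest (log2 fold change -0.36 ± 0.14 (SE), adjusted p = 0.0939). Without NC sample 3 its log2 fold change was -0.19. CKAP2, ECT2 and HMMR, which act on microtubules and in cytokinesis, had log2 fold changes of -0.24, -0.13 and -0.41 and did not pass. CKAP2 was at -0.13 without OV-BRCA1 sample 1, and ECT2 ranged from -0.23 without OV-BRCA1 sample 3 to -0.01 without OV-BRCA1 sample 2. HMMR was called lower without NC sample 3 (-0.57, adjusted p = 0.0310).

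Genes of the same machineries outside the 50, as far as listed here, did not move as a body. The lists used here, like the 50 genes, were drawn up with results of these samples known, so the contrast is a description. The study's own downregulated genes include others outside the 50, such as KIF22, KIF18B and KIFC1. Over 5 further lists of 92 genes for the APC/C core, other kinetochore subunits, other condensin and cohesin subunits, CDK1 regulators and the DREAM and MuvB complexes, 23 fell and 11 rose, with a median log2 fold change of 0.01. The 16 genes of the APC/C core with its coactivator CDH1 had 4 lower and 2 higher. By adjusted p the first were ANAPC2 (log2 fold change -0.55), FZR1 (CDH1, -0.62) and ANAPC16 (-0.32). Of 32 other kinetochore and centromere genes, 7 were lower and 2 higher (median 0.02), and those with the smallest adjusted p were OIP5 (-0.59), CENPT (-0.60) and DSN1 (-0.43). Of 16 other condensin and cohesin genes, 5 were lower and 2 higher (median -0.07), among them NCAPH2 (-0.39), RAD21 (-0.42) and the separase gene ESPL1 (-0.78). The shares of lower genes in these 3 lists, 25.0%, 21.9% and 31.2%, were nearer to the 18.9% of all genes than the 64.0% of the mitotic genes was, and no gene of the 5 lists was called beyond a log2 fold change of 1.

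Among 16 CDK1 regulators, 6 fell and 4 rose (median 0.12). These shares, 37.5% and 25.0%, were above the 18.9% and 16.4% of all genes. MASTL, the Greatwall kinase that restrains the phosphatase acting against CDK1, had 42.3, 41.8 and 43.2 FPKM in OV-BRCA1 and 21.1, 22.2 and 22.03 FPKM in NC and rose (log2 fold change 0.93 ± 0.05 (SE), adjusted p = 6.22e-05). GTSE1, a microtubule protein that also limits p53, had 13.02, 15.5 and 15.3 FPKM in OV-BRCA1 and 28.1, 28.98 and 29.7 FPKM in NC and fell (log2 fold change -0.94 ± 0.08 (SE), adjusted p = 0.000400). The groups were separate in both genes, in opposite directions. CCNF, cyclin F, was lower at 8.16 against 14.1 FPKM (log2 fold change -0.72). Of 12 DREAM and MuvB genes, whose complexes bind the CHR, 1 fell and 1 rose (8.33% each). RBL2, the p130 pocket protein, averaged 14.9 against 25.1 FPKM (log2 fold change -0.71), and E2F5 2.70 against 1.14 FPKM (0.79).

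The 35 G1/S genes served as the other cell cycle list, and 9 fell and 8 rose (median 0.01). These shares were 25.7% and 22.9%, against 18.9% and 16.4% of all genes. CDC6, a licensing factor of replication, had a log2 fold change of 0.55, DTL, a substrate receptor of a ubiquitin ligase in S phase, 0.69, and the transcription factor gene E2F2 -0.69. The median of the mitotic genes was -0.46, and the difference between the 2 lists was not tested. Over the 6 lists of 127 genes, 32 fell and 19 rose. The counts of these lists depended on single samples, with 21 lower and 12 higher without NC sample 3 and 22 lower and 11 higher without OV-BRCA1 sample 3.

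**Figure D4:**
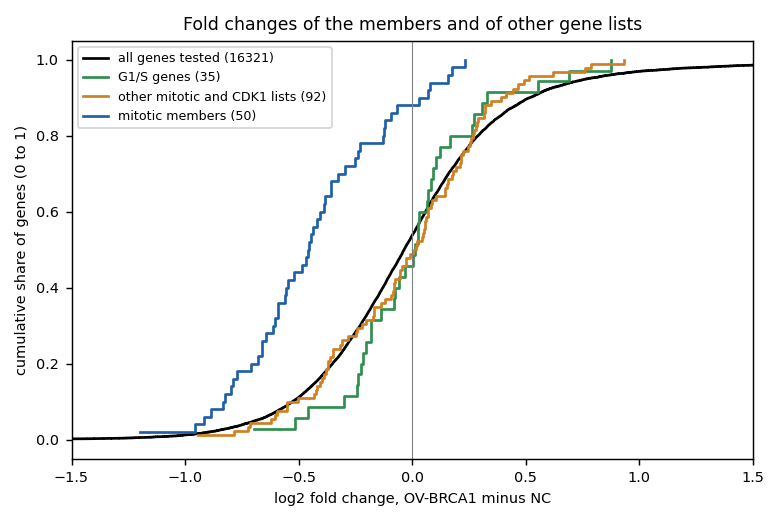
Cumulative share of genes by log2 fold change of OV-BRCA1 against NC, for the 50 mitotic genes, the 92 genes of 5 related lists, the 35 G1/S genes and all 16321 genes tested. The curve of the mitotic genes is shifted left (median -0.46), while the other 3 curves cross the middle near 0 (medians 0.01, 0.01 and -0.04).

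Fold changes are set beside the promoter elements for the 41 genes with a window, as a description without a test. The 31 genes with a CHR of either form had a median log2 fold change of -0.55 and 22 of them were lower, and the 10 without had -0.46 and 8 lower. The 31 genes with a CCAAT match had -0.55 and 24 lower, and the 10 without had -0.32 and 6 lower. With both elements (23 genes) the median was -0.56 and 17 were lower, and among the other 18 it was -0.45 and 13 were lower. CCNB1, without a CHR match, and CDCA3, with a match next to its start, were both lower, and CDCA5 with a TTCGAA match did not pass. Over all tested genes with a window, the 1531 with a CHR match had a median of 0.01 and those without one -0.02. The shares of lower genes among them were 18.4% with a CHR match and 19.6% without. For CCAAT these shares were 20.3% and 18.8%, and for both elements together 22.9% and 19.2%.

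The deposited values are per transcript, and the 50 genes have 420 transcripts, of which 264 entered a test of single transcripts. In that test 25 transcripts of 17 genes fell and 1 rose, against 2.63% lower and 2.85% higher among all 50925 transcripts tested. Of the 25, 16 are protein-coding and 9 are retained-intron or processed transcripts. TOP2A-201, with 36.97, 37.4 and 36.3 FPKM in OV-BRCA1 and 65.7, 65.99 and 65.1 FPKM in NC, had the smallest adjusted p (log2 fold change -0.81 ± 0.06 (SE), adjusted p = 0.00216). UBE2C-205 had 15.9, 17.6 and 17.1 FPKM in OV-BRCA1 and 45.9, 44.6 and 39.4 FPKM in NC (log2 fold change -1.31 ± 0.09 (SE), adjusted p = 0.00235). In these genes, and in CCNB1, CDC20, TPX2, CENPF, UBE2S, NCAPD2, PRC1, CCNB2 and CDCA3, at least 1 protein-coding transcript fell with the gene sum.

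The transcript that rose was BUB3-204, a protein-coding form of BUB3, with 8.64, 6.56 and 7.64 FPKM in OV-BRCA1 and 4.27, 4.34 and 4.54 FPKM in NC (log2 fold change 0.67 ± 0.13 (SE), adjusted p = 0.0475). BUB3-205, a processed transcript, fell at the same time, from 32.7, 27.3 and 28.2 FPKM in NC to 20.7, 18.8 and 18.4 FPKM in OV-BRCA1 (log2 fold change -0.58 ± 0.10 (SE), adjusted p = 0.0374), and the main form BUB3-201 stayed between 64.2 and 71.4 FPKM in all samples. The gene sum of BUB3 did not pass the test. ECT2-216 had 0.595, 1.08 and 1.16 FPKM in OV-BRCA1 and 15.5, 13.2 and 8.54 FPKM in NC (log2 fold change -2.76 ± 0.25 (SE), adjusted p = 0.00511). It held 27.8% to 43.2% of the ECT2 sum in NC and 1.86% to 4.08% in OV-BRCA1, and it was the 1 member transcript called by a test of each transcript against the rest of its gene (adjusted p = 0.0233), a test added after the values were seen in which 0.460% of transcripts were called. The ECT2 sum did not pass. Another form, ECT2-204, had 1.38, 15.2 and 14.8 FPKM in OV-BRCA1 and 0.669, 0.887 and 0.824 FPKM in NC (adjusted p = 0.173). The leading form of ECT2 differed between samples within both groups.

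A test of unequal change over the transcripts of a gene (diffSplice) called 6 of 47 members, BUB3, DLGAP5, CDC20, AURKB, CDC25B and PRC1, and 8.49% of all genes. In simulated data this test called many genes that had not been changed, so these calls are not counted as changes. In DLGAP5, DLGAP5-201 had 3.22, 9.53 and 3.39 FPKM in OV-BRCA1 and 16.1, 14.6 and 15.4 FPKM in NC, and DLGAP5-202 had 11.1, 5.11 and 10.9 FPKM in OV-BRCA1 and 3.90, 4.38 and 4.003 FPKM in NC. The 2 forms thus traded places in OV-BRCA1 samples 1 and 3. In AURKB, the retained-intron transcript AURKB-205 had 4.19, 16.7 and 17.2 FPKM in OV-BRCA1 and 42.8, 33.6 and 35.6 FPKM in NC (adjusted p = 0.135). In CDC20, the short processed transcript CDC20-204 had 1.91, 2.07 and 1.89 FPKM in OV-BRCA1 and 11.2, 5.52 and 5.34 FPKM in NC (adjusted p = 0.0488). In CDC25B, the 333-base processed transcript CDC25B-209 had 1.45, 1.01 and 1.44 FPKM in OV-BRCA1 and 2.88, 4.63 and 4.23 FPKM in NC (adjusted p = 0.0399). Of the 46 genes with any transcript that is not protein-coding, 34 had a smaller share of such transcripts in OV-BRCA1 than in NC, against 58.8% of the 10044 tested genes of this kind. The median share over the 46 genes was 12.7% in OV-BRCA1 and 11.3% in NC, so the count and the median differ in direction.

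The same transcript led in all 6 samples in 29 of the 50 genes, in 22 of the 32 lower genes and in 7 of the 18 genes that did not pass. In the others the leading form changed between replicates. NUSAP1-212 had 69.3, 59.4 and 75.9 FPKM in OV-BRCA1 and 0.579, 0.733 and 119 FPKM in NC, and NUSAP1-202 had 3.86, 2.89 and 1.49 FPKM in OV-BRCA1 and 64.8, 66.6 and 0.854 FPKM in NC. The deposited values thus put NC sample 3 on one form and NC samples 1 and 2 on the other, and whether this lies in the assignment of reads was not tested. Both forms are protein-coding and about equal in length (2256 and 2274 bases). In MKI67, MKI67-201 had 10.3, 16.4 and 2.98 FPKM in OV-BRCA1 and 21.9, 2.43 and 0.790 FPKM in NC, and MKI67-202 had 6.86, 1.17 and 3.10 FPKM in OV-BRCA1 and 1.43, 18.4 and 19.9 FPKM in NC. AURKA had 5 leading transcripts in 6 samples, ECT2 had 4, and PLK1, FOXM1, CDC25C, HMMR, NUF2 and ZWINT had 3. The sums of AURKA, FOXM1 and MKI67 were uneven within a group and their leading form changed as well, and the part of this change in the sums was not tested. With only the most abundant transcript of each gene, 21 of the 50 genes were lower and none higher, and 11 calls were lost in different ways. Log2 fold changes stayed at least near those of the sums in AURKB (-1.68), PLK1 (-1.08), INCENP (-0.72), NEK2 (-0.70), NUF2 (-0.69) and SPC25 (-0.34). They were smaller in CENPA (-0.28), CDK1 (-0.22) and CDC25C (-0.12) and positive in PTTG1 (0.37) and CDCA8 (0.66).

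**Figure D5:**
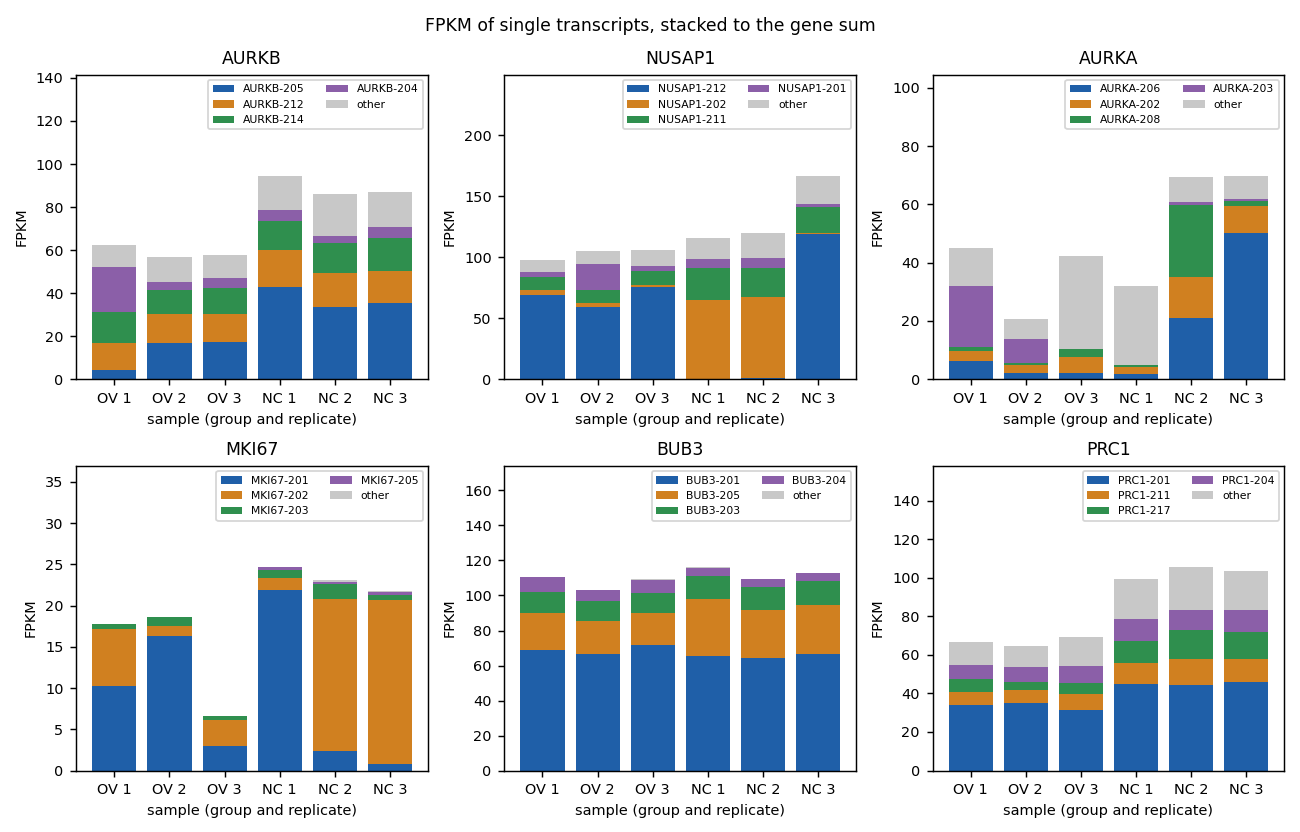
FPKM of the 4 most abundant transcripts (colours) and of the remaining ones (grey) in each sample, stacked to the gene sum, for 6 of the mitotic genes. OV 1 to 3 and NC 1 to 3 are the samples. BUB3 and PRC1 keep the same leading form in all 6 samples, while NUSAP1, MKI67 and AURKA change it between samples of a group, and AURKB-205 lies at 4.19 to 17.2 FPKM in OV-BRCA1 and 33.6 to 42.8 FPKM in NC.

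Overlapping genes were checked because the sources used here do not state whether counting used the strand. Of the 50 genes, 16 overlap another tested gene, 14 of them on the other strand. Of the 34 genes without an overlap, 19 were lower. Of 23 listed pseudogenes of the members, 4 reached 0.5 FPKM in a sample.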

How the data were processed

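The authors deposited FPKM per transcript for 6 libraries, made after removal of adapter and low-quality reads. The submitters' processing notes name FastQC, HISAT2 and the genome build hg38. The quantification tool and the use of strand are not given in the sources used here. The study's methods call the 3 samples of a group biological replicates and do not say what was repeated.

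Samples were grouped by the plasmid in their labels. Of 199167 transcripts, 198868 were named by GENCODE 29, and FPKM was summed per gene. Genes with at least 0.5 FPKM in at least 3 samples (16321 genes) were tested with limma 3.58.1 in R 4.3.3 on log2(FPKM + 1) with a mean-variance trend (robust off), and p-values were adjusted by Benjamini-Hochberg over all of them. Such fold changes understate the change of low genes. Of the low values, 34.9% to 39.1% were within 0.1 of a whole fragment, so whole reads were not recovered, no count model was used and the depths are estimates.

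The members and lists were chosen with earlier results of these data known. Values per sample were given by rule for the 5 called genes with the smallest adjusted p in each role group, for its most abundant gene and for genes beyond a log2 fold change of 1, and up to 3 called genes with the smallest adjusted p were named of each other list. CDC25A and other members' values were added after they had been seen. The tests were tried on simulated data. The alternatives were a pseudocount of 0.1, no filter, at least 2 FPKM in every sample of a group, 2 other scalings, the replicate number as a block, protein-coding transcripts only, the most abundant transcript, robust estimation, leaving out each sample and, added after the data were seen, a sum weighted by transcript length.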

Additional observations from a re-analysis of the deposited data

How the results depend on the processing

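Of the 32 lower genes, 19 were called lower under each of the 16 alternatives and 27 under each except the most abundant transcript. The count of lower genes was 29 to 31 when single samples were left out, 28 with protein-coding transcripts only and 21 with the most abundant transcript, where the median was -0.51. The count beyond a log2 fold change of -1 was 2 with a pseudocount of 0.1 (BUB1B), with protein-coding transcripts (CENPA) and with the most abundant transcript (DLGAP5), and 1 to 2 when single samples were left out. With length weighting 34 genes were lower and 1 gene, MAD2L1, was higher. The other lists together had 21 lower with protein-coding transcripts, 15 lower and 9 higher with the most abundant transcript, and 21 to 26 lower and 11 to 14 higher when single samples were left out. Unequal transcript change was called in 3 members with a pseudocount of 0.1, in 3 to 6 when single samples were left out and in 1 by the transcript ratio test.

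Same-numbered samples of the 2 groups did not deviate together (r = -0.024, 0.025 and 0.014), so the values show no pairing by number. Whether the samples were handled in pairs is not stated, and correlations of values cannot decide it. With the replicate number as a block, 31 members were lower, PLK1 and ZWINT were lost, HMMR was gained, and 4 members were called for unequal transcript change.

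The sign turned, without a call, with protein-coding transcripts in BUB1 (-0.11), BUB3 (0.0810), TTK (0.0151), AURKB (0.0145), GAPDH (-0.16) and the median of all genes (0.0329). With the most abundant transcript it turned in BUB1 (-0.29), BUB3 (0.0792), PTTG1 (0.37), CDCA8 (0.66), MKI67 (0.82) and NUSAP1 (3.32). With scaling to nuclear protein-coding genes it turned in CDCA5 (-0.0089) and GAPDH (-0.0075). With 1 sample left out in turn, the values ran from -0.13 to 0.70 in FOXM1, from -0.15 to 0.0048 in TTK and from -0.0486 to 0.25 in SMC2. Leaving out 1 sample also moved other members that were not called by over 1.5 times, with ranges that kept their sign in BUB1, BUB3, CDCA5 and MAD2L1. The causes were not tested. Depth in fragments was estimated only, and its effect on CENPA and other low members was not tested.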
